A study of Mus musculus with 16 samples.

Results

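The 36 genes described here encode the steps from glucose uptake to lactate export and the pentose phosphate pathway, followed in mouse spleen monocytes with high and with low surface Nrp1. They were taken by symbol from a table of 25562 genes, where all 36 have a row, and 35 had enough reads to be tested among 15541 genes. In open chromatin they were taken by Ensembl gene identifier, which gave 91 of 40796 regions, at 33 of the 36 genes. Nrp1, or neuropilin-1, is a cell surface receptor that binds semaphorins and vascular endothelial growth factor.

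Glycolysis splits glucose into pyruvate and yields ATP and NADH, and lactate dehydrogenase regenerates the NAD+ that the pathway needs. The pentose phosphate pathway branches off at glucose 6-phosphate, makes NADPH in its oxidative arm and exchanges sugars of different length with glycolysis in its other arm. In phagocytes this NADPH serves the oxidative burst, nitric oxide synthesis and the reduction of glutathione, and activated myeloid cells are known for high glycolytic flux.

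Monocytes were sorted by surface Nrp1 from spleens of wild-type 7-day-old mice, labelled C57BL/6J for RNA and C57BL/6 for ATAC. The Nrp1 high and the Nrp1 low group had 3 RNA libraries each, from 80000 cells a library, and 5 ATAC libraries each, from 50000 cells a library. All samples carry the cell type label of myeloid derived suppressor cells, the protocol speaks of pooled RNA, and the labels do not say that libraries came from separate animals. The p-values therefore reflect only how far these libraries spread, which may be technical, and the sources used here name no sorting marker besides Nrp1.

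Total estimated counts were 28440098 to 31428419 in the Nrp1 high and 23395363 to 35127433 in the Nrp1 low libraries. Levels are given as CPM, a gene's counts per 1000000 counts of a library whose size was scaled by TMM, with no correction for gene length. Nrp1 itself stood at 97.3, 89.8 and 111 CPM in the high libraries, against 20.1, 57.8 and 41.5 CPM in the low libraries. All 12 monocyte markers had counts in every library, and their sum was 5456 to 6021 CPM in Nrp1 high, against 4492 to 5265 CPM in Nrp1 low. Of the 12, 0 were called, and the fitted difference was higher in Nrp1 high for 9 and lower for 3. The 18 neutrophil granule markers, also with counts in every library, summed to 9573 to 12231 CPM in Nrp1 high, against 53075 to 85696 CPM in Nrp1 low, and 12 of the 18 were called lower. Platelet markers (3 of 10 called lower) summed to 18.1 to 25.7 CPM in Nrp1 high, against 67.9 to 79.7 CPM in Nrp1 low. Macrophage markers (0 of 10 called) summed to 465 to 491 CPM in Nrp1 high, against 670 to 745 CPM in Nrp1 low. Basophil and mast cell markers (1 of 7 called lower) summed to 32.2 to 58.7 CPM in Nrp1 high, against 71.7 to 125 CPM in Nrp1 low, and 0 of 12 erythroid, 0 of 6 B cell and 0 of 6 T cell markers were called. Without high replicate 3 edgeR called 0 genes of all those tested, these markers included, and 909 genes had an unadjusted p under 0.05. In bulk samples, fewer cells of a type and less RNA per cell cannot be told apart, and the part of these cells in the results below was not tested.

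None of the 35 genes tested passed edgeR's quasi-likelihood test at an adjusted p under 0.05, against 0.682% of all genes tested (0.676% lower and 0.00643% higher in Nrp1 high). Adjusted p-values of the 35 genes lay between 0.125 and 0.908. At an unadjusted p under 0.05, 4 of the 35 were lower in Nrp1 high (Hk3, Pfkfb4, Ldhb and Taldo1) and 0 higher, against 6.72% lower and 4.5% higher over all genes. In either direction 11.2% of all genes had such a p, and both the 35 genes and all genes moved when a library was left out. The count was 9 without high replicate 2 (15% of all genes) and 9 without low replicate 2 (21.2% of all genes). Leaving out high replicate 1 gave 3 (6.33% of all genes) and high replicate 3 gave 4 (5.59%). Dropping low replicate 1 gave 6 (8.43%), and dropping low replicate 3 gave 3 (7.29%). A fit that dropped both high replicate 2 and low replicate 1 gave 12 (17.8% of all genes). DESeq2 called 1 of the 35, Hk3, and 2.59% of all genes.

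The fitted differences lay mostly on the side of Nrp1 low. The log2 fold change, Nrp1 high minus Nrp1 low, was below 0 for 28 of the 35 genes and for 49.4% of all genes tested. The genes were chosen with earlier results of these data known, so comparisons of the 35 with all genes are descriptions only. The median log2 fold change was -0.33 over the 35 genes and 0.01 over all genes, and the 35 genes ranged from -1.11 to 0.80. The median of the 35 genes in single libraries varied within groups with an SD of 0.12 on the log2 scale. With plain library totals in place of TMM, which move all genes by a median of 0.19, 23 of 35 lay below 0 and the median was -0.13 against 0.20 over all genes. In 6 genes (Hk3, Gpi1, Pfkfb4, Ldhb, Pgls and Pgd) every high library lay below every low library, where 10.8% of all genes did, and in 0 genes above, where 9.51% did. The 36 genes summed to 10615, 13409 and 10783 CPM in the high libraries, against 16609, 12821 and 15595 CPM in the low libraries, so that high replicate 2 lay above low replicate 2.

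**Figure D1:**
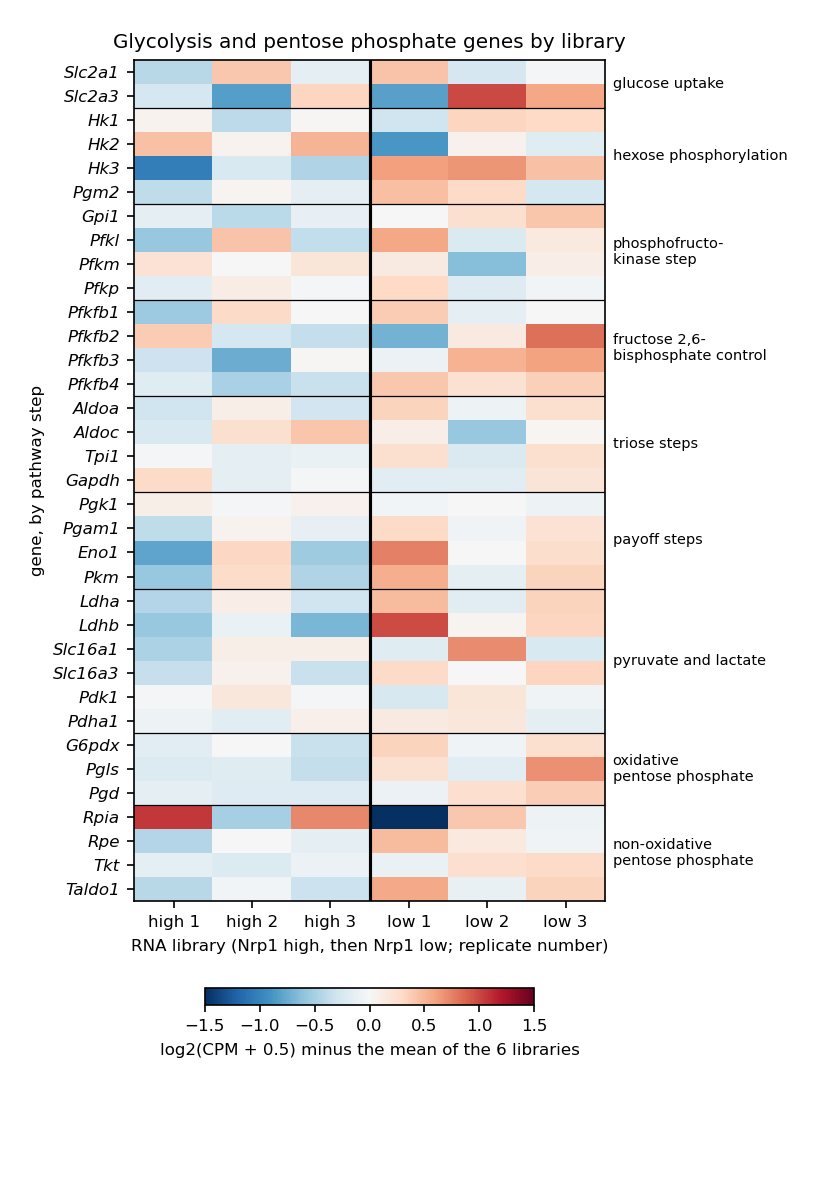
Each cell is the log2(CPM + 0.5) of a gene in 1 of the 6 RNA libraries minus the mean of that gene over the 6, with genes in pathway order and Nrp1 high libraries left of the line. Blue prevails in the high replicates 1 and 3 and red in the low replicates 1 and 3, while Hk2 and Rpia show the opposite colours and high replicate 2 resembles low replicate 1.

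The promoters of Hk3, Pfkfb4 and Ldhb are shown because these genes had the lowest p-values of those with an ATAC region within 1000 bases of a start. Each line gives the 250 bases before the RefSeq start on GRCm38.p6, 5′ to 3′ on the strand of the gene, at chr13:55021386-55021635 (minus strand), chr9:108991652-108991901 (plus strand) and chr6:142507958-142508207 (minus strand). Capitals mark ACGTG, a form of the core of the hypoxia response element, on either strand (CACGT on the strand shown), or GGGTG, part of the motif of Kruppel-like factors.
Hk3: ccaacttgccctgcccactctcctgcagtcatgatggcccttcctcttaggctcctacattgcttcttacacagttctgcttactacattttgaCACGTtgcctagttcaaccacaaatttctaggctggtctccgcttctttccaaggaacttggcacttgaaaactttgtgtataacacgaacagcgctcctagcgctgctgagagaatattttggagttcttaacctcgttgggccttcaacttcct
Pfkfb4: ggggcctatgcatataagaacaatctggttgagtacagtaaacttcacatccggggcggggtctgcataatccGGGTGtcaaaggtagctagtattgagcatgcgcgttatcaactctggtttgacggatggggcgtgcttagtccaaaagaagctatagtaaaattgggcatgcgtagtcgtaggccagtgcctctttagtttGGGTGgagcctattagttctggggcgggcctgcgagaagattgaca
Ldhb: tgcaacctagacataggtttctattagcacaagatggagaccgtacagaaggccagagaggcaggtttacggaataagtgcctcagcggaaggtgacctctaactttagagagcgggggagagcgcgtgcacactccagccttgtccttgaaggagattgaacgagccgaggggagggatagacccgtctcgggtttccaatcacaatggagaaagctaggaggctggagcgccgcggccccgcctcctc
The Hk3 window held 1 ACGTG and no GGGTG, the Pfkfb4 window 2 GGGTG and no ACGTG, and the Ldhb window neither. Another form of the core, GCGTG, was not searched or marked, and the printed Pfkfb4 and Ldhb windows hold it. Absence of ACGTG therefore does not show that a window lacks the core. The first 2 windows lay wholly inside an ATAC region, and the Ldhb window lay 247 bases from the nearest one.

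Glucose enters the cell through the transporters GLUT1 (Slc2a1) and GLUT3 (Slc2a3), and neither differed beyond the spread of the libraries. Slc2a1 stood at 33.5, 59.4 and 40.6 CPM in Nrp1 high, against 60.1, 37.3 and 43.9 CPM in Nrp1 low (log2 fold change -0.08 ± 0.29 SE, edgeR adjusted p = 0.896). Its sign turned with plain library totals (0.11). Slc2a3 stood at 11.5, 7.55 and 17.4 CPM in Nrp1 high, against 7.63, 28.0 and 20.9 CPM in Nrp1 low (log2 fold change -0.63 ± 0.50 SE, edgeR adjusted p = 0.556). For both transporters the groups overlapped, and high replicate 2 and low replicate 1 had nearly equal levels.

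The hexokinases, which trap glucose as glucose 6-phosphate, spanned a wider range of fold changes than the genes of any other step here, from -1.11 to 0.63 on the log2 scale. Hk3, the isoform typical of granulocytes and other myeloid cells, stood at 65.1, 114 and 97.8 CPM in Nrp1 high, against 205, 212 and 182 CPM in Nrp1 low. The highest high library lay well below the lowest low library. Mean levels were 92.4 ± 25.0 CPM in Nrp1 high, against 199.6 ± 15.4 CPM in Nrp1 low (SD, n = 3 each), 2.16-fold lower, with a log2 fold change of -1.11 (95% interval -1.66 to -0.56). This missed the threshold in edgeR's quasi-likelihood test (adjusted p = 0.125) and passed DESeq2 (adjusted p = 0.00359), and over the 15 alternatives run the adjusted p ranged from 0.00359 to 0.544.

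Hk2, the inducible mitochondria-bound isoform, lay on the other side. It stood at 75.5, 57.8 and 79.1 CPM in Nrp1 high, against 30.0, 58.0 and 48.7 CPM in Nrp1 low. High replicate 2 and low replicate 2 were level, so the groups overlapped. The log2 fold change was 0.63 ± 0.28 (SE, edgeR adjusted p = 0.445), and it was above 0 in all 15 alternatives. Hk1, the widely expressed isoform, averaged 55.2 ± 8.99 CPM in Nrp1 high, against 64.8 ± 14.8 CPM in Nrp1 low (SD, n = 3 each, edgeR adjusted p = 0.651).

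Within a library, the ratio of Hk3 to Hk2 CPM separated the groups, a comparison chosen after the values were seen. Of 11 ratios between genes of a pathway that were computed, 3 did not overlap between groups (Hk3 over Hk2, Hk2 over Hk1 and Ldhb over Ldha) and 8 overlapped. The ratio of Hk3 to Hk2 was 0.863, 1.98 and 1.24 in Nrp1 high, against 6.81, 3.65 and 3.74 in Nrp1 low. Hk2 over Hk1 was 1.24, 1.29 and 1.32 in Nrp1 high, against 0.630, 0.785 and 0.670 in Nrp1 low. Neither ratio overlapped between groups, and neither depends on the scaling of the libraries. Hk3 over Hk1 overlapped, with 1.07, 2.55 and 1.64 in Nrp1 high and 4.29, 2.86 and 2.51 in Nrp1 low. Pgm2, a phosphoglucomutase-family gene whose symbol has been exchanged with Pgm1 in mouse annotation (row ENSMUSG00000029171), had a log2 fold change of -0.35 ± 0.25 (SE, edgeR adjusted p = 0.530).

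**Figure D2:**
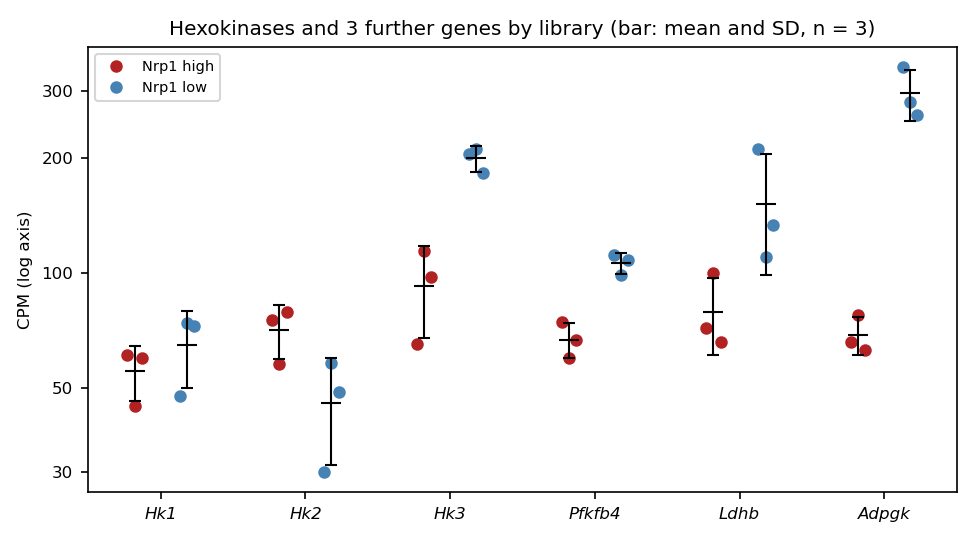
Points are CPM per RNA library on a log axis for 3 hexokinase genes, Pfkfb4, Ldhb and Adpgk, Nrp1 high in red left of Nrp1 low in blue, with the mean and SD of 3 libraries. Hk3, Pfkfb4, Ldhb and Adpgk do not overlap between groups, Hk2 runs the other way with overlap, and Hk1 overlaps.

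At the next steps, glucose 6-phosphate isomerase (Gpi1) makes fructose 6-phosphate and phosphofructokinase commits it to glycolysis. Gpi1 stood at 623, 517 and 626 CPM in Nrp1 high, against 687, 806 and 910.5 CPM in Nrp1 low. The groups did not overlap, with a log2 fold change of -0.44 ± 0.20 (SE, edgeR adjusted p = 0.445). Pfkl, the liver-type subunit, stood at 48.2, 96.4 and 55.6 CPM in Nrp1 high, against 108, 61.6 and 79.3 CPM in Nrp1 low (log2 fold change -0.31 ± 0.32 SE, edgeR adjusted p = 0.640). High replicate 2 lay above low replicates 2 and 3. The platelet-type subunit Pfkp had a log2 fold change of -0.05, which turned to 0.15 with library totals, and the muscle-type Pfkm had 0.24, both with overlap (edgeR adjusted p = 0.908 for Pfkp and 0.715 for Pfkm).

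The PFKFB enzymes make and degrade fructose 2,6-bisphosphate, the strongest known activator of phosphofructokinase. Their summed level was 77.2 to 93.6 CPM in Nrp1 high, against 131 to 143 CPM in Nrp1 low, without overlap. Pfkfb4, a hypoxia-inducible isoform, stood at 74.2, 59.8 and 66.7 CPM in Nrp1 high, against 112, 98.5 and 108 CPM in Nrp1 low. The libraries within a group lay close together, at 66.9 ± 7.20 CPM in Nrp1 high, against 106 ± 6.78 CPM in Nrp1 low (SD, n = 3 each). The log2 fold change was -0.67 (95% interval -1.08 to -0.25, edgeR adjusted p = 0.259), and the lowest adjusted p of the alternatives was 0.0808, with DESeq2.

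Pfkfb3, the isoform with the highest kinase to phosphatase activity, stood at 14.8, 10.8 and 18.8 CPM in Nrp1 high, against 17.4, 26.8 and 28.5 CPM in Nrp1 low. Only low replicate 1 lay within the range of the high libraries. The log2 fold change was -0.71 ± 0.31 (SE, edgeR adjusted p = 0.445). Pfkfb1 and Pfkfb2 had low levels, at 3.02 to 6.20 and 0.477 to 2.33 CPM over the 6 libraries, and overlapped. Their log2 fold changes of -0.16 and -0.36 were not stable in sign: that of Pfkfb1 was 0.04 with library totals, and that of Pfkfb2 turned in 1 of the 15 alternatives.

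The triose steps, from aldolase to glyceraldehyde 3-phosphate dehydrogenase, differed least from the median of all genes, with a median log2 fold change of -0.06 over the 4 genes tested. Aldoa, the main aldolase outside liver and brain, stood at 936, 1217 and 941 CPM in Nrp1 high, against 1447, 1085 and 1356 CPM in Nrp1 low (log2 fold change -0.33 ± 0.22 SE, edgeR adjusted p = 0.505). High replicate 2 exceeded low replicate 2. A further row with the symbol Aldoa (ENSMUSG00000114515) had at most 0.540 CPM and was not tested. Tpi1, triose phosphate isomerase, stood at 349, 324 and 334 CPM in Nrp1 high, against 423, 308 and 423 CPM in Nrp1 low (log2 fold change -0.20 ± 0.20 SE, edgeR adjusted p = 0.632), and its difference was 0.01 with library totals. Gapdh, often used as a reference gene, averaged 1541 ± 248 CPM in Nrp1 high, against 1456 ± 215 CPM in Nrp1 low (SD, n = 3 each, edgeR adjusted p = 0.865). Aldoc, a brain-type aldolase, had a log2 fold change of 0.32 at 1.84 to 4.12 CPM (edgeR adjusted p = 0.719).

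The ATP-yielding steps held both the steadiest and some of the most variable genes. Pgk1, phosphoglycerate kinase, shown by library after its values were seen, stood at 358, 332 and 354 CPM in Nrp1 high, against 328, 336 and 321 CPM in Nrp1 low (log2 fold change 0.08, 95% interval -0.30 to 0.47). Eno1, alpha-enolase, stood at 1324, 2836 and 1576 CPM in Nrp1 high, against 3844, 2282 and 2731 CPM in Nrp1 low. High replicate 2 exceeded low replicates 2 and 3, so the groups overlapped (log2 fold change -0.63 ± 0.34 SE, edgeR adjusted p = 0.465). Pkm, pyruvate kinase, stood at 1306, 2337 and 1417 CPM in Nrp1 high, against 2811, 1750 and 2433 CPM in Nrp1 low (log2 fold change -0.47 ± 0.30 SE, edgeR adjusted p = 0.497), with high replicate 2 above low replicate 2 only.

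Pgam1, phosphoglycerate mutase, had a log2 fold change of -0.30 ± 0.20 (SE, edgeR adjusted p = 0.508). Eno2, the neuronal enolase, was the 1 gene not tested, with at most 0.227 CPM. Eno1 and Gapdh have near-identical copies in the table. Eno1b took 4.92 to 7.29% of the sum of Eno1 and Eno1b over the libraries, and the Gapdh pseudogenes ps15 and ps16 stood at 20.0 to 44.2 CPM. Reads may have been split between such copies, so the levels of Eno1 and Gapdh are uncertain to that extent.

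At the pyruvate branch, the B subunit of lactate dehydrogenase gave the second largest negative difference of the 35 genes. Ldhb, which favours conversion of lactate to pyruvate, stood at 71.7, 99.7 and 66.0 CPM in Nrp1 high, against 211, 110 and 134 CPM in Nrp1 low. The groups did not overlap, though high replicate 2 and low replicate 2 were close. The log2 fold change was -0.94 (95% interval -1.60 to -0.27, edgeR adjusted p = 0.324), and the lowest adjusted p of the alternatives was 0.109, with DESeq2. Ldha, which favours lactate formation, averaged 523 ± 105 CPM in Nrp1 high, against 710.5 ± 156 CPM in Nrp1 low (SD, n = 3 each, log2 fold change -0.44, edgeR adjusted p = 0.465). The ratio of Ldhb to Ldha CPM, chosen after the values were seen, was 0.162, 0.155 and 0.135 in Nrp1 high, against 0.253, 0.205 and 0.176 in Nrp1 low, without overlap.

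Slc16a3 encodes the lactate exporter MCT4. It stood at 61.2, 81.3 and 61.4 CPM in Nrp1 high, against 95.4, 78.1 and 97.1 CPM in Nrp1 low, with high replicate 2 above low replicate 2 (log2 fold change -0.41 ± 0.20 SE, edgeR adjusted p = 0.452). The transporter MCT1 (Slc16a1) had a log2 fold change of -0.26 ± 0.35 (SE, edgeR adjusted p = 0.728). The mitochondrial use of pyruvate is represented by Pdk1 and Pdha1. Pyruvate dehydrogenase kinase Pdk1 averaged 21.0 ± 1.70 CPM in Nrp1 high, against 20.0 ± 3.02 CPM in Nrp1 low, and its substrate Pdha1 averaged 152 ± 13.02 CPM in Nrp1 high, against 165 ± 18.2 CPM in Nrp1 low (SD, n = 3 each). Their 95% intervals, -0.48 to 0.62 for Pdk1 and -0.53 to 0.30 for Pdha1, leave room for differences of either sign. Of 10 further tested genes of the pyruvate carrier, the pyruvate dehydrogenase complex and its kinases and phosphatases, 9 lay below 0 and 0 were called. Over all genes, 49.4% lay below 0 and 0.682% were called. The 10 genes were picked out after their values were seen. They ran from -0.74 for the kinase Pdk3 (edgeR adjusted p = 0.369) to 0.91 for the phosphatase Pdp2 (edgeR adjusted p = 0.351), with -0.58 for the carrier subunit Mpc1 (edgeR adjusted p = 0.445).

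All 3 genes of the oxidative pentose phosphate arm lay below 0, with a summed level of 903 to 1012 CPM in Nrp1 high, against 1148 to 1405 CPM in Nrp1 low. G6pdx, glucose 6-phosphate dehydrogenase, makes the first NADPH and stood at 425.6 ± 48.2 CPM in Nrp1 high, against 543 ± 73.6 CPM in Nrp1 low (SD, n = 3 each, log2 fold change -0.35, edgeR adjusted p = 0.465). Pgls, the lactonase of this arm, stood at 128, 130.4 and 115 CPM in Nrp1 high, against 174, 131 and 239 CPM in Nrp1 low. The groups did not overlap, but high replicate 2 and low replicate 2 were less than 1 CPM apart (log2 fold change -0.54 ± 0.24 SE, edgeR adjusted p = 0.445). Pgd, 6-phosphogluconate dehydrogenase, makes the second NADPH and stood at 423, 407 and 410.1 CPM in Nrp1 high, against 439.6, 556 and 601 CPM in Nrp1 low. Its high libraries were nearly level with each other, and all lay below the low libraries (log2 fold change -0.37 ± 0.19 SE, edgeR adjusted p = 0.458).

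In the non-oxidative arm, transketolase and transaldolase move carbon units between sugars. Taldo1, transaldolase, stood at 578, 750.2 and 616 CPM in Nrp1 high, against 1141, 714 and 974 CPM in Nrp1 low. High replicate 2 lay above low replicate 2, and the log2 fold change was -0.54 ± 0.23 (SE, edgeR adjusted p = 0.445). Rpe, ribulose phosphate epimerase, stood at 45.9, 62.8 and 56.7 CPM in Nrp1 high, against 86.7, 69.3 and 60.4 CPM in Nrp1 low (log2 fold change -0.39 ± 0.22 SE, edgeR adjusted p = 0.470). Tkt, transketolase, had a log2 fold change of -0.30 ± 0.19 (SE, edgeR adjusted p = 0.504). Rpia, ribose phosphate isomerase, had the highest log2 fold change of the 35 genes, 0.80 ± 0.57 (SE, edgeR adjusted p = 0.529). Its libraries, shown after the values were seen, varied widely within both groups, with 36.9, 12.2 and 29.2 CPM in Nrp1 high, against 5.31, 23.3 and 16.5 CPM in Nrp1 low.

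**Figure D3:**
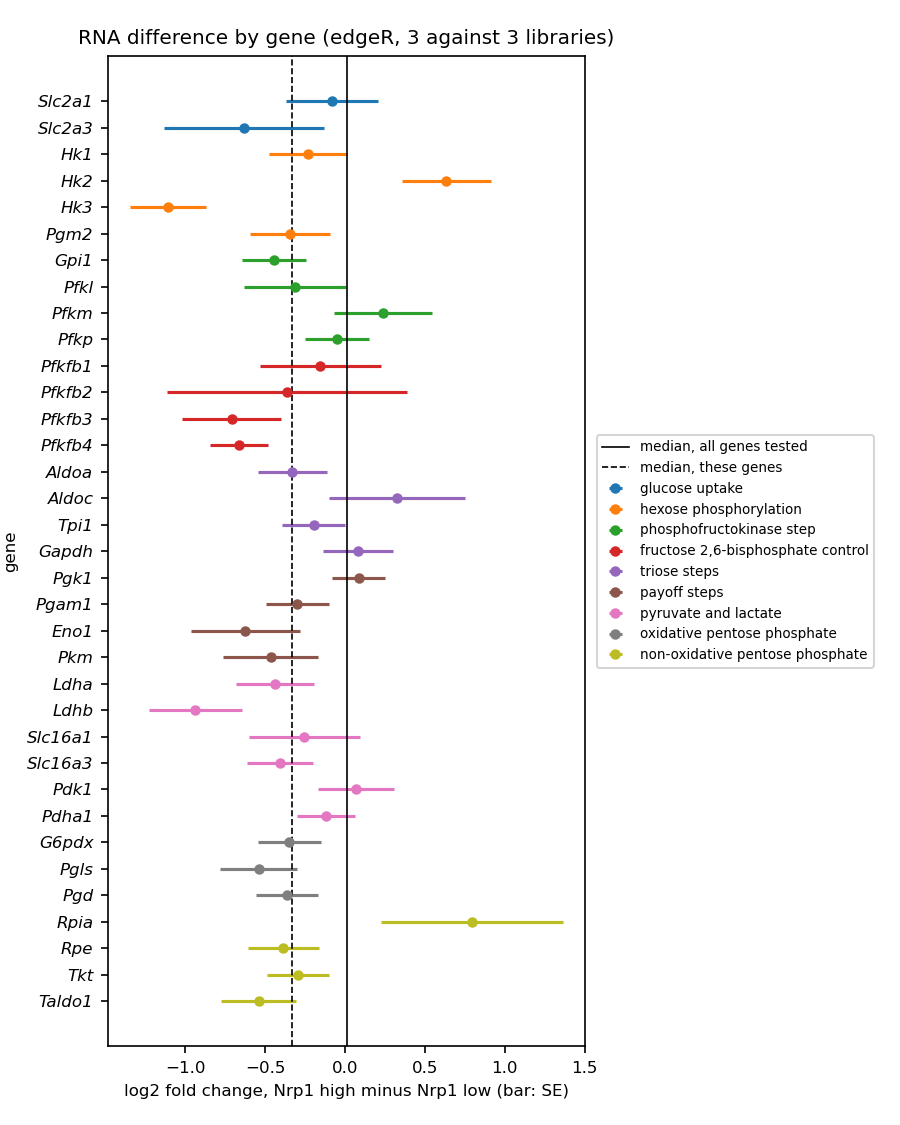
Points are log2 fold changes (Nrp1 high minus Nrp1 low) and standard errors for the 35 genes tested, coloured by pathway step; the solid line is the median of all genes tested (0.01) and the dashed line that of these genes (-0.33). Left of 0 lie 28 genes, none of which passed the test and of which Slc2a1, Pfkp, Pfkfb1, Tpi1 and Pdha1 turn sign with plain library totals, and 7 points lie to the right.

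The libraries differed in a way that the groups do not describe. High replicate 2 and low replicate 1 were both the highest of their group for 14 of the 35 genes and both the lowest for 9. Together these are 65.7% of the 35, against 51.9% of 14055 genes with counts in every library. Eno1, Pkm, Pfkl, Slc2a1 and Ldhb were among those highest in both libraries, and Hk2, Slc2a3, Pfkfb3, Hk1 and Rpia among those lowest in both. Mitochondrially encoded genes, a sign of RNA quality or cell state, were lowest in these libraries, at 9270 CPM in high replicate 2 (15264 and 19578 in the other high libraries) and 7858 CPM in low replicate 1 (10131 and 11678 in the other low libraries). Their part in the results was not tested. With both libraries left out, an alternative added after seeing the data, 0 of 35 genes passed edgeR's quasi-likelihood test (0.839% of all genes did), 12 had an unadjusted p under 0.05 (17.8% of all genes did), and the median log2 fold change was -0.38.

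**Figure D4:**
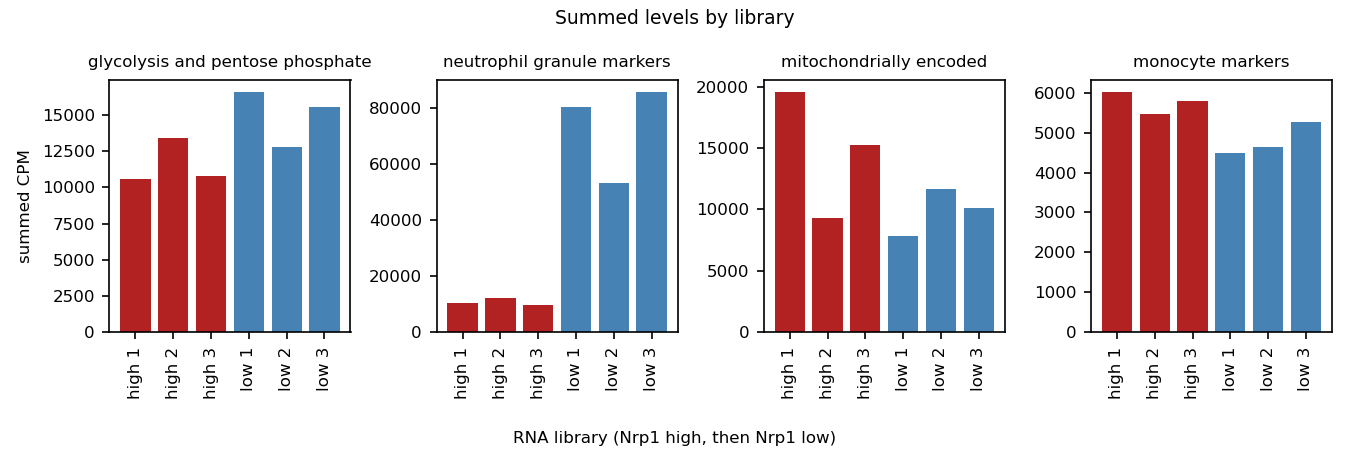
Bars are summed CPM in each RNA library, Nrp1 high in red left of Nrp1 low in blue, for the 36 genes, the neutrophil granule markers, the mitochondrially encoded genes and the monocyte markers. The granule markers lie at 9573 to 12231 CPM in Nrp1 high, against 53075 to 85696 CPM in Nrp1 low, while the 36 genes overlap between groups and high replicate 2 stands above the other high libraries.

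Further genes of the same metabolism, listed with results of these data known, held 1 called gene. Of 34 further genes of glycolysis, pyruvate use and glycogen that were tested, transporters included, 28 lay below 0, against 49.4% of all genes. Of these 34 genes 1 was called lower and 0 higher, against 0.676% and 0.00643% of all genes. Their median log2 fold change was -0.35. The called gene was Adpgk, an ADP-dependent glucokinase of the endoplasmic reticulum, which stood at 66.0, 77.7 and 62.7 CPM in Nrp1 high, against 346, 280.5 and 260 CPM in Nrp1 low. The high libraries lay far below every low library, with a log2 fold change of -2.10 ± 0.20 (SE) and a 4.29-fold difference (edgeR adjusted p = 0.0046). Over the alternatives its adjusted p ranged from 1.03e-16 with DESeq2 to 0.0864 with the replicate number as a block, and it also missed the threshold without high replicate 3 (adjusted p = 0.0720).

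Pygl, the liver-type glycogen phosphorylase, stood at 295, 313 and 307 CPM in Nrp1 high, against 551, 475 and 518 CPM in Nrp1 low (log2 fold change -0.76, edgeR adjusted p = 0.162). Gbe1, the glycogen branching enzyme, stood at 19.4, 25.0 and 23.4 CPM in Nrp1 high, against 52.5, 38.2 and 37.8 CPM in Nrp1 low (log2 fold change -0.92, edgeR adjusted p = 0.234). In both, every high library lay below every low library, as in 10.8% of all genes. Among 6 tested genes of gluconeogenesis 0 were called and the median was 0.28. Fbp1, fructose 1,6-bisphosphatase, had the largest negative difference there, at 4.24 ± 1.78 CPM in Nrp1 high, against 17.5 ± 5.12 CPM in Nrp1 low (SD, n = 3 each, log2 fold change -2.05, edgeR adjusted p = 0.103). Pck2, the mitochondrial phosphoenolpyruvate carboxykinase, had 0.66 (edgeR adjusted p = 0.420), and Pcx, pyruvate carboxylase, had 1.15 (edgeR adjusted p = 0.436).

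Other genes around NADPH and ribose did not pass the test. Of 9 further pentose and ribose phosphate genes 0 were called, with a median of -0.02 (Prps1 -0.70, Tigar 0.52 and Prpsap1 -0.23 on the log2 scale). Of 19 tested rows of NADPH and glutathione genes 0 were called, with a median of -0.25. Gsr, glutathione reductase, which spends NADPH, averaged 555 ± 215 CPM in Nrp1 high, against 1056 ± 202 CPM in Nrp1 low (SD, n = 3 each, edgeR adjusted p = 0.370), and Gpx1, glutathione peroxidase, had a log2 fold change of -0.60 (edgeR adjusted p = 0.434). The 2 rows with the symbol Nnt had log2 fold changes of 0.14 (ENSMUSG00000025453) and -2.70 (ENSMUSG00000116207, edgeR adjusted p = 0.441).

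Among 23 tested regulators of the hypoxia, Myc and Mondo families and their common targets, 0 were called, with a median log2 fold change of -0.21. Mxd1 and Mxi1, which antagonise Myc, had -1.10 (edgeR adjusted p = 0.203) and -0.57 (edgeR adjusted p = 0.351). Vegfa, a target of hypoxia-inducible factor, had -1.27 at 1.51 to 3.92 CPM in Nrp1 high, against 4.48 to 9.65 CPM in Nrp1 low (edgeR adjusted p = 0.420). Hif1a, its oxygen-regulated subunit, named here outside the naming rule after its values were seen, stood at 51.1, 63.1 and 52.0 CPM in Nrp1 high, against 26.9, 45.6 and 33.3 CPM in Nrp1 low (log2 fold change 0.65, edgeR adjusted p = 0.430).

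Open chromatin was compared by the authors, and their deposited table lists a log2 fold, an FDR and a p-value for every region but nothing per library. Of the 91 regions at the 33 genes, 1 had an FDR under 0.05 in the authors' deposited table, against 7.55% of all regions, and it was lower in Nrp1 high, as were 4.99% of all regions. The median log2 fold in that table was -0.05 over the 91 regions and -0.09 over all, and 51 of the 91 lay below 0, against 61.5% of all regions. At an unadjusted p under 0.05 the authors' deposited table held 17 of the 91, against 23.7% of all regions.

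The called region lies at Pfkfb3, chr2:11501434-11501833 on GRCm38, which the authors' annotation places at a promoter, with a distance of 0 to a transcript start. The authors' deposited table gives it a log2 fold of -0.51 and an FDR of 0.00388. Another region of the gene, chr2:11553613-11554012, also at a start, had a log2 fold of -0.21 and an FDR of 0.242 in the authors' deposited table. The gene runs on RefSeq GRCm38.p6 from 11471430 to 11554071 on the minus strand of chromosome 2. The called region therefore lies inside its span, and the other region, which was not called, at its upstream end. The transcript difference of Pfkfb3, -0.71, has the same sign and did not pass the test.

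At other genes named above, the authors' deposited table showed differences that did not reach an FDR of 0.05. The region over the Hk3 promoter printed above, chr13:55021251-55021650, had a log2 fold of -0.41 (FDR 0.159), and that at the Hk2 start -0.10 (FDR 0.616). The region over the Pfkfb4 promoter had a log2 fold of 0.01 (FDR 0.956), while a region in an intron of the same gene had -0.44 (FDR 0.0855). The region upstream of Ldhb, with a distance of -497, had 0.05 (FDR 0.853), and that at the Ldha start -0.27 (FDR 0.296). In the authors' deposited table the region at the start of Adpgk had 0.13 (FDR 0.473), beside a transcript 4.29-fold lower.

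At the nearest regions of the remaining genes the values in the authors' deposited table were mixed. Where several regions of a gene had a distance of 0, the one of lower coordinate was taken as nearest. The region at the Gpi1 start had a log2 fold of -0.30 (FDR 0.127), that at the Slc2a1 start -0.26 (FDR 0.276) and that at the Slc2a3 start -0.18 (FDR 0.594). Regions at the starts of Aldoa (-0.20), Gapdh (-0.13), Pgls (-0.18), Pdha1 (-0.22), Slc16a3 (-0.11) and Pdk1 (-0.27) lay below 0 in that table. Those of Tpi1 (0.23), Aldoc (0.38), Pkm (0.11), Pgm2 (0.24), Hk1 (0.16) and Pfkfb2 (0.10) lay above 0. Those of Eno1, Pgk1, Pgam1, Pgd, Rpe, Rpia, Taldo1, Tkt, Pfkl, Pfkm, Pfkp and Slc16a1 lay between -0.07 and 0.05. Further regions with a distance of 0 in that table had -0.34 at Slc2a3 (FDR 0.162), 0.20 at Hk1 (FDR 0.155) and -0.12 at Pfkp (FDR 0.541). Others had -0.29 at Pfkfb4 (FDR 0.420), 0.02 at Eno1 (FDR 0.977) and -0.46 at the further Aldoa identifier (FDR 0.167). Regions farther away spanned the widest range, from -0.74 in an intron of Hk1 (FDR 0.117) to 0.86 in an intron of Rpe (FDR 0.243).

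**Figure D5:**
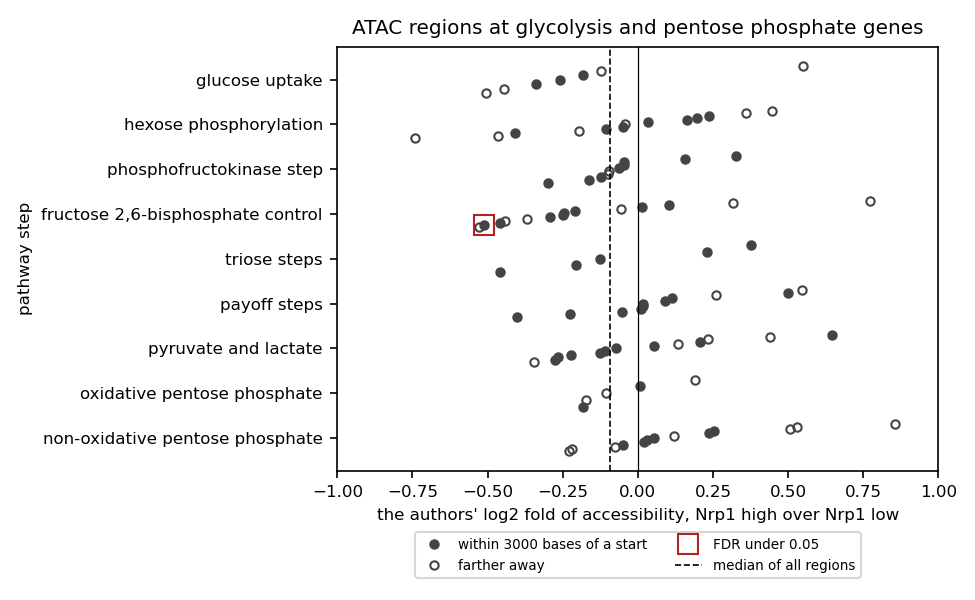
Points are the 91 regions by pathway step, with the authors' log2 fold of accessibility, Nrp1 high over Nrp1 low, on the horizontal axis; filled points lie within 3000 bases of a transcript start, and the dashed line is the median of all regions (-0.09). The points spread to both sides of 0 at every step, and the 1 region under an FDR of 0.05, at Pfkfb3, is boxed at -0.51.

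Transcript and chromatin differences were set side by side for 33 genes with a region within 1000 bases of a start. Each gene was represented by its region nearest a start, with ties settled by the lower coordinate. The signs were equal in 16 of 33, with 14 both below 0 and 2 both above, while 12 genes had a transcript below and a region above 0 and 5 the reverse. Across these 33 genes Spearman's rho was 0.15 and Pearson's r 0.24, given as a description, since genes share the libraries and are not independent replicates.

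The 250 bases before RefSeq starts were searched on both strands for 3 motifs at the 35 of 36 genes with an entry. ACGTG was in the window of 14 of 35 genes (40.0%), against 18.5% of 27025 genes. CACGTG, the E-box bound by Myc and its partners, which contains ACGTG, was in 5 (14.3%), against 6.86% of genes. GGGTG was in 27 (77.1%), against 54.5% of genes. Ldha had the most, with 5 matches of ACGTG over both strands at 1 of its starts. They include 2 CACGTG, each of which reads the same on both strands and counts as 2 matches. No ACGTG was found at the other genes with an entry, among them Ldhb, Gpi1, Taldo1, Pgls, G6pdx, Gapdh, Aldoc and Rpia. A match of letters is a description of the window, and genes with several starts had more windows to search. By window, ACGTG was in 33.3% of the 54 windows of these genes, against 16.6% of 32851 windows over all genes. For CACGTG the shares were 9.26% against 6.02%, and for GGGTG 64.8% against 52.0%. The 27025 genes were not matched to the 35 for expression or base composition.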

How the data were processed

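RNA was measured in 3 Nrp1 high and 3 Nrp1 low libraries, made per the labels' protocols with a low-input kit that relies on template switching. Their deposited unit is the estimated count, a whole number per gene and library with no normalization. HISAT2, StringTie and the build GRCm38 are named in the submitters' processing notes without versions. In every library the value 4 was 1.22 to 1.53 times as frequent as its neighbours 3 and 5, so the true scale of a count, and with it the counting error, is uncertain. The sources used here give no strand setting, which leaves overlapping and antisense genes uncertain.

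For ATAC the authors deposited a comparison of 40796 regions that holds a log2 fold, an FDR and a p-value, and the distance of each region to the nearest transcript start (other unit, in bases) by the authors' annotation. DiffBind, ChIPseeker, MACS2, BWA, Picard, Trimmomatic, DESeq2 and edgeR are named in the submitters' processing notes. The ATAC depth is unknown, and the sources used here do not say which libraries entered or whether reads were shifted for the transposase. Per the labels the table was a DESeq2 one, but the name of the deposited table is of edgeR. The direction of the fold, high over low, rests on the name of the comparison.

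Genes were kept with filterByExpr, scaled by TMM and tested over all 15541 genes by the robust quasi-likelihood F test of edgeR 4.0.16, run in R 4.3.3, with group as the only term. A gene was called at a Benjamini-Hochberg adjusted p under 0.05. The SE of a log2 fold change is its size divided by the square root of F. As alternatives, upper-quartile and RLE factors, plain library totals, 2 other filters, DESeq2 1.42.0, limma-voom (limma 3.58.1), the replicate number as a block, and leaving out each library were run. Values per library are printed for the 2 genes of lowest p in each pathway step, and outside this rule for Pgk1 and Rpia, and of each other list up to 3 genes of lowest p are named. The genes and lists were chosen with earlier results of these data known.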

Additional observations from a re-analysis of the deposited data

How the results depend on the processing

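The count of 0 called genes among the 35 held in every alternative with edgeR or limma-voom at an adjusted p under 0.05, and at an adjusted p under 0.1 with the test as reported. DESeq2 called 1 (Hk3), and an unadjusted p under 0.05 gave 4. Leaving out 1 library at a time gave 0 called genes each time and a median log2 fold change of -0.37 to -0.27, or -0.38 with high replicate 2 and low replicate 1 both left out. Library totals gave a median of -0.13. The sign of Slc2a1 turned with library totals (0.11); leaving out 1 library gave Slc2a1 -0.34 to 0.13, above 0 without high replicate 1 (0.09) and without low replicate 1. The sign of Tpi1 turned with library totals (0.0063). Over the 15 alternatives the sign also turned in 4 for Pfkp, in 3 for Pfkfb1 and in 2 for Pdk1. It turned in 1 each for Gapdh, Pdha1, Slc16a1 and Pfkfb2. The cause was not tested.

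The labels do not say whether replicate numbers pair the samples. Deviations of same-numbered libraries from their group means correlated at -0.31, -0.35 and 0.03, and high replicate 2 correlated best with low replicate 1 (0.44). These deviations depend on each other within a group, so they do not decide whether libraries were paired. With the replicate block, 0 of the 35 genes were called, the median was -0.33, and edgeR called 0 genes of all tested (943 at an unadjusted p under 0.05), against 106 without it. Over all genes, edgeR called 28 without high replicate 1, 50 without high replicate 2, 0 without high replicate 3 (909 at an unadjusted p under 0.05), 125 without low replicate 1, 81 without low replicate 2 and 29 without low replicate 3, while DESeq2 called 403.

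For ATAC, an FDR under 0.1 gave 3 of the 91 regions, against 13.2% of all regions, and an unadjusted p under 0.05 gave 17. The median log2 fold within 3000 bases of a start was -0.0499, against -0.0584 over all regions as near. In both assays a missed threshold does not show that levels were equal.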

Other observations

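Among the genes of related lists, 11 ATAC regions had an FDR under 0.05 in the authors' deposited table. They were 2 of 67 regions at further glycolysis, pyruvate and glycogen genes, 1 of 13 at gluconeogenesis genes, 1 of 14 at pentose and ribose phosphate genes, 4 of 37 at NADPH and glutathione genes and 3 of 67 at regulators, against 7.55% of all regions. The region at the start of Gsr had a log2 fold of 0.58 (FDR 0.0187) in that table, above 0, while the Gsr transcript had a log2 fold change of -0.93 that did not pass edgeR's test (adjusted p = 0.370). A region in an intron of Pygl had 0.56 (FDR 0.0284) in the authors' deposited table, beside a transcript at -0.76 (edgeR adjusted p = 0.162). At Pcx both were above 0, with 0.33 (FDR 0.0212) in the authors' deposited table and a transcript at 1.15 (edgeR adjusted p = 0.436).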
